A study of Homo sapiens with 4 samples.

Results

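The 50 genes described here code for enzymes that add methyl or acetyl groups to histones or take them off. They were taken by name, with earlier results of these data known, as 21 methyltransferases, 9 acetyltransferases, 11 demethylases and 9 deacetylases. N6-methyladenosine (m6A) sites in their mRNAs were read from 1 list of 18789 sites, each a single adenosine with a prediction score. A site was counted for a gene when it lay in any annotated exon on the gene's strand, and 18 of the 50 genes held 75 sites between them.

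The list came from C643, an established cell line of human anaplastic thyroid carcinoma origin, untreated and wild type. miCLIP2 crosslinks an antibody against m6A to fragmented RNA by ultraviolet light and reads the modified adenosine from where the cDNAs end. The machine learning model m6Aboost then classified the peaks at adenosines and gave each a score between 0 and 1. There was 1 group of 3 biological replicates in 4 libraries (replicate 1 had 2 technical libraries), and the authors pooled them into the list, so no spread between replicates, no read depth and no test between samples could be had. The list holds no expression values: a gene without a listed site may lack the modification or may have had too few reads, and these cannot be told apart. The intervals given below are 95% Wilson intervals over listed genes, sites or motifs, which are not independent of each other, and they cover the counting and not the variation between cultures. A single cancer line is a narrow model of the thyroid, and none of the thyroid follicular markers TG, TSHR, SLC5A5, PAX8, NKX2-1 and FOXE1 had a site, which without expression values says nothing about their transcription.

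Histone tails carry methyl and acetyl groups that help to set which genes are transcribed, and writer and eraser enzymes keep them in balance. Acetylation of histones goes with open chromatin, while the outcome of methylation depends on the residue: methylated lysine 4 of histone H3 (H3K4) marks promoters and enhancers, and methylated H3K9 and H3K27 mark repressed chromatin. In mRNA, m6A is placed by the METTL3 and METTL14 complex mostly at the DRACH motif (D is A, G or T; R is A or G; H is A, C or T) and is known for its frequency in long internal exons and around stop codons. It is read by proteins that affect splicing, translation and decay of the transcript.

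The sequences below show where the sites sit. The first set has the highest-scoring site of each of the 8 genes with the most sites, written 5′ to 3′ on the transcribed strand of GRCh38 as 21 nt of reference sequence, with the pentamer centred on the listed adenosine in capitals.
KMT2B (chr19:35732494-35732514, plus strand, CDS, score 0.864): tggtgtcaGGACTgagtgctg
HDAC7 (chr12:47783422-47783442, minus strand, 3' UTR, score 0.961): agaaatgtGAACTtggcctca
NSD2 (chr4:1979362-1979382, plus strand, 3' UTR, score 0.891): ccgtgtgaGGACTgaccctgg
KMT2D (chr12:49021583-49021603, minus strand, 3' UTR, score 0.888): ggcaccagGGACAatcctctt
KAT2A (chr17:42113280-42113300, minus strand, 3' UTR, score 0.904): gaggaccaGAACTgctcattt
SETD1A (chr16:30965871-30965891, plus strand, CDS, score 0.771): gagctcatGGACCgacttggg
KMT5C (chr19:55347845-55347865, plus strand, 3' UTR, score 0.890): ctccccagAGACTgccctcac
KAT5 (chr11:65719146-65719166, plus strand, CDS, score 0.943): actcccaaGGACTggagcaag

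All 8 were DRACH motifs. The next set holds sites that stand out by position or sequence: the highest score of all members (HDAC3), a site in the last codon of KMT2D just before its stop codon, the lowest score (EP300), and sites outside DRACH in 4 genes, with capitals as above. Adenosines that neighbour each other gave the HDAC7 site here and the HDAC7 site above, whose windows are 1 nt apart.
HDAC3 (chr5:141621111-141621131, minus strand, 3' UTR, score 0.974): gtagacaaGGACTgagattgc
KMT2D (chr12:49021774-49021794, minus strand, CDS, score 0.732): aaatggatGAACTaagaagct
EP300 (chr22:41178751-41178771, plus strand, CDS, score 0.517): cacatcctGGACTggtagctg
SETD1A, not DRACH (chr16:30965965-30965985, plus strand, CDS, score 0.538): agggcaagGGATTgattgccg
KAT2A, not DRACH (chr17:42113592-42113612, minus strand, 3' UTR, score 0.588): tccacctcGGATTctgatctg
KDM4A, not DRACH (chr1:43704538-43704558, plus strand, 3' UTR, score 0.851): tagtgaaaGGACGagccattt
HDAC7, not DRACH (chr12:47783423-47783443, minus strand, 3' UTR, score 0.596): cagaaatgTGAACttggcctc

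Of the 50 genes, 18 had a listed site (36%, 24.1 to 49.9), against 3791 of 19259 protein-coding genes (19.7%). The sites were unevenly spread. KMT2B had 12, HDAC7 10, NSD2 9, KMT2D and KAT2A 7 each, SETD1A 6, and KMT5C and KAT5 4 each, and these 8 genes together held 59 of the 75 sites (78.7%). DOT1L and KDM1A had 3 sites, CREBBP and KDM4A 2, and 6 genes (EHMT1, EHMT2, EP300, KAT8, KDM3B and HDAC3) had 1. Members with a site had a median of 3 sites and coding genes with a site a median of 4. At least 12 sites, the number in KMT2B, were listed for 313 coding genes, which is 8.26% of those with a site.

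**Figure D1:**
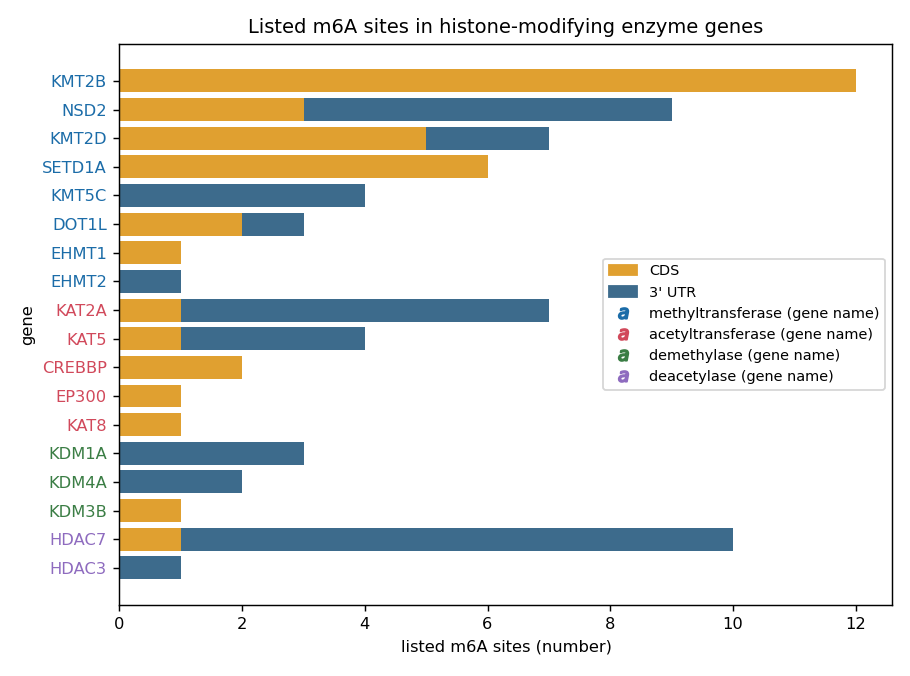
Number of listed m6A sites (x axis) in each of the 18 members with a site (y axis, name coloured by enzyme class), split by whether the site lies in the CDS or the 3' UTR of the canonical transcript. KMT2B and SETD1A had CDS sites only, while 9 of the 10 HDAC7 sites and 6 of the 7 KAT2A sites were in the 3' UTR.

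Sites were listed in short and in long members. The longest supported transcripts of the members had a median of 6028 nt, against 3037 nt over coding genes, and ran from 1789 nt (KAT8) to 20686 nt (KMT2D). Both members under 2 kb (KAT8 and HDAC3) had a site, where 19.5% of coding genes of that length did. Of the 11 members from 2 to 4 kb, 5 had a site (coding genes 22.9%), and of the 12 from 4 to 6 kb, 3 had one (coding genes 20.2%). Of the 25 members of 6 kb and over, 8 had a site, against 12.0% of coding genes that long. Of the 9 members above 10000 nt, 2 had a site, KMT2D and CREBBP. No share of coding genes above that length is given beside it. Across the 50 members Spearman's rho between the number of sites and length was -0.19, as a description over genes that share the same libraries (coding genes -0.03). The classes used the longest supported transcripts, some of them shorter than the canonical ones. The lengths were 3416 against 8541 nt for SETD2, 2707 against 5095 nt for EHMT1 and 3079 against 5718 nt for KMT5B. With canonical lengths rho over the members was -0.22.

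GC content of the transcript went with the listing more closely, in classes that were chosen after the values had been seen. Under 50% GC, 3 of 25 members had a site (NSD2, KDM1A and EP300), and 5.66% of coding genes did. From 50 to 60% GC, 9 of 14 members and 33.0% of coding genes had one. At 60% GC and over it was 6 of 11 members and 40.4% of coding genes. The canonical transcripts of NSD2 and KDM1A are richer in GC. With canonical transcripts 1 of 23 members under 50% GC had a site, EP300 at 49.8% GC. The share of coding genes on canonical transcripts is not given, and on the longest supported ones it was 5.66%. Spearman's rho between sites and GC content was 0.50 over the members and 0.39 over coding genes, and the part of read depth or expression in this relation was not tested.

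**Figure D2:**
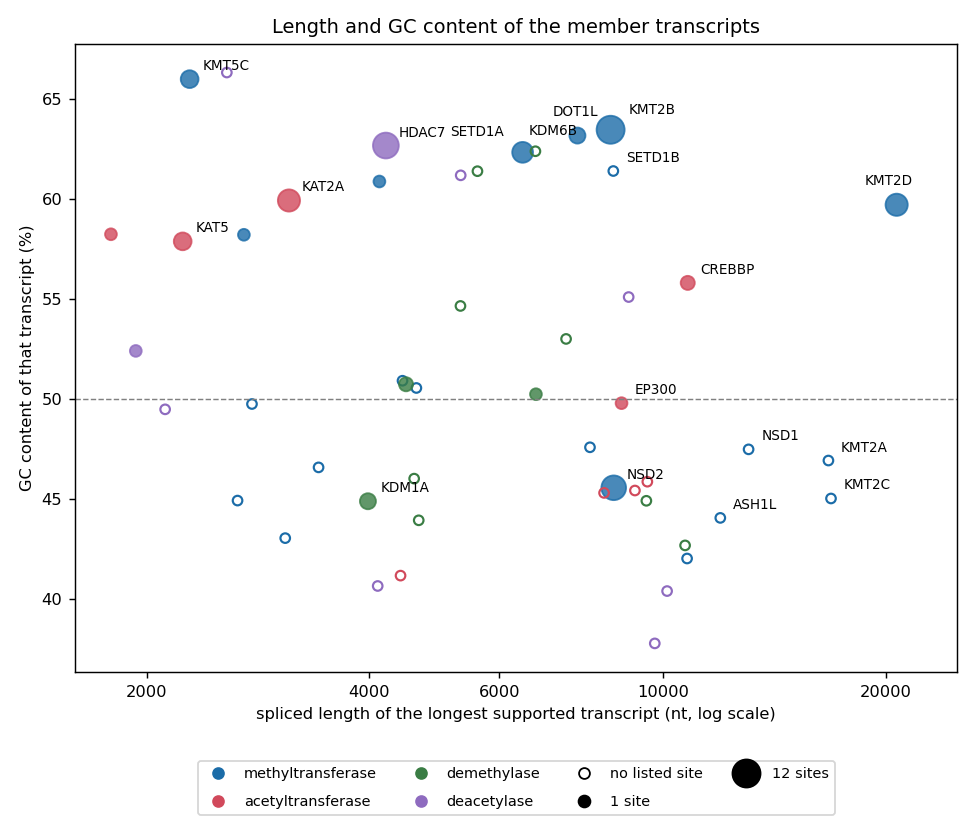
Each circle is 1 of the 50 members, placed by the spliced length (x axis, log scale, nt) and the GC content (y axis, %) of its longest supported transcript. Filled circles have listed sites, with an area that grows with their number from 1 to 12, and open circles have none; 15 of the 18 filled circles lie above the dashed line at 50% GC, and the long, GC-poor transcripts of KMT2A, KMT2C, NSD1 and ASH1L are open.

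Among the methyltransferases, 8 of 21 had a site (coding genes 19.7%) and 43 sites were listed, with the H3K4 enzymes at the front. In the H3K4 group 3 of 6 genes had 25 sites. KMT2B, which methylates H3K4 at promoters, had all of its 12 sites in 2 coding exons, 6 in exon 3 (2021 nt) and 6 in exon 28 (1294 nt) of 37. The scores in exon 3 ran from 0.572 to 0.80 and those in exon 28 from 0.656 to 0.864. The first 3 sites of exon 28 were at GGACT, with scores of 0.864, 0.741 and 0.863, spaced 20 and 23 nt apart. These 2 exons held 27 and 23 DRACH motifs, of which 22.2% and 26.1% were listed. Its closest relative KMT2A had no site, although 2 of its internal coding exons were longer (2654 and 4249 nt) and held 58 and 112 DRACH motifs. KMT2A had a GC content of 46.9% and KMT2B of 63.5%.

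KMT2D, which with KMT2C places H3K4 monomethylation at enhancers, had 7 sites, all in the last part of its very long transcript. They were 2 in exon 40 (2790 nt; 0.589 and 0.886), 2 in exon 49 (1141 nt; 0.739 and 0.864) and 3 in the last exon. Of the last 3, 1 (0.732) lay 2 nt before the stop codon, in the second base of the last amino acid's codon, and the others lay 97 nt (0.695) and 189 nt (0.888) past the start of the stop codon. The site 2 nt before the stop also lay in an exon of an overlapping gene without a symbol on the same strand, and was the only member site shared in this way. The long exons 11, 12, 32 and 35 of KMT2D had 8, 25, 27 and 26 DRACH motifs and no site. KMT2C had no site in its 16860 nt, with 398 DRACH motifs and 45.0% GC, against 59.7% GC for KMT2D.

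SETD1A, a catalytic subunit of the complexes that place most H3K4 trimethylation, had 6 sites, all of them in coding exons 7 (850 nt, 1 site), 8 (786 nt, 3 sites) and 14 (1050 nt, 2 sites). Its scores were low within the members, from 0.538 to 0.771, and 4 of the 6 fell under 0.7. SETD1B, the other catalytic subunit of this kind, had no site. It had similar GC content (61.4% against 62.3%) and 4 internal exons of 492 to 1260 nt with 8 to 21 DRACH motifs each. Expression and read depth of either gene are unknown, and the part of GC content in the listing was not tested.

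Among the 5 H3K36 methyltransferases 1 had sites, NSD2, and 19.7% of all coding genes had a site. NSD2, which dimethylates H3K36, had 1 site in its second exon (0.736) and 8 in the last exon, of 3555 nt, of its canonical transcript. Of those 8, 2 were in the CDS, 116 and 84 nt before the stop codon (0.664 and 0.699). The other 6 were in the 3' UTR, 79 to 465 nt past the first base of the stop codon, with scores from 0.545 to 0.891. The longest supported transcript of NSD2 lacks that exon, so it holds only the first site (0.117 sites per kb, against 1.19 per kb on the canonical transcript). NSD1 (13042 nt, 271 DRACH motifs) and NSD3 (10768 nt, 218 motifs), its paralogues, had none. ASH1L also had none, with an exon of 4564 nt and 108 DRACH motifs in it, and neither had SETD2, the H3K36 trimethylase, with an exon of 4367 nt and 104 motifs on its canonical transcript.

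Each of the remaining methyltransferases had at most 4 sites. Of the 4 H3K9 enzymes, EHMT1 and EHMT2, which work as a heterodimer, had 1 each with nearly the same score: 0.770 for EHMT1 in the long coding exon 3 (557 nt) and 0.767 for EHMT2 in the 3' UTR, 9 nt past the start of the stop codon. SETDB1 and PRDM2 had none, in PRDM2 despite an exon of 4414 nt with 93 DRACH motifs. Of the H4K20 enzymes, KMT5C, which places the di- and trimethyl marks, had 4 sites in its 3' UTR, the first and last 161 nt apart, scored 0.845, 0.818, 0.890 and 0.841. All 4 were above the median of the list, and KMT5C had 1.75 sites per kb. KMT5B, its paralogue with the same activity, had no site, and its transcript had 43.0% GC against 66.0% for KMT5C. KMT5A, the monomethylase, had none. DOT1L, the H3K79 methyltransferase, had 2 sites in coding exon 27 (945 nt; 0.541 and 0.754) and 1 in the 3' UTR (0.789). EZH1 and EZH2, the catalytic subunits of Polycomb repressive complex 2 that methylate H3K27, had no site (81 and 56 DRACH motifs).

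**Figure D3:**
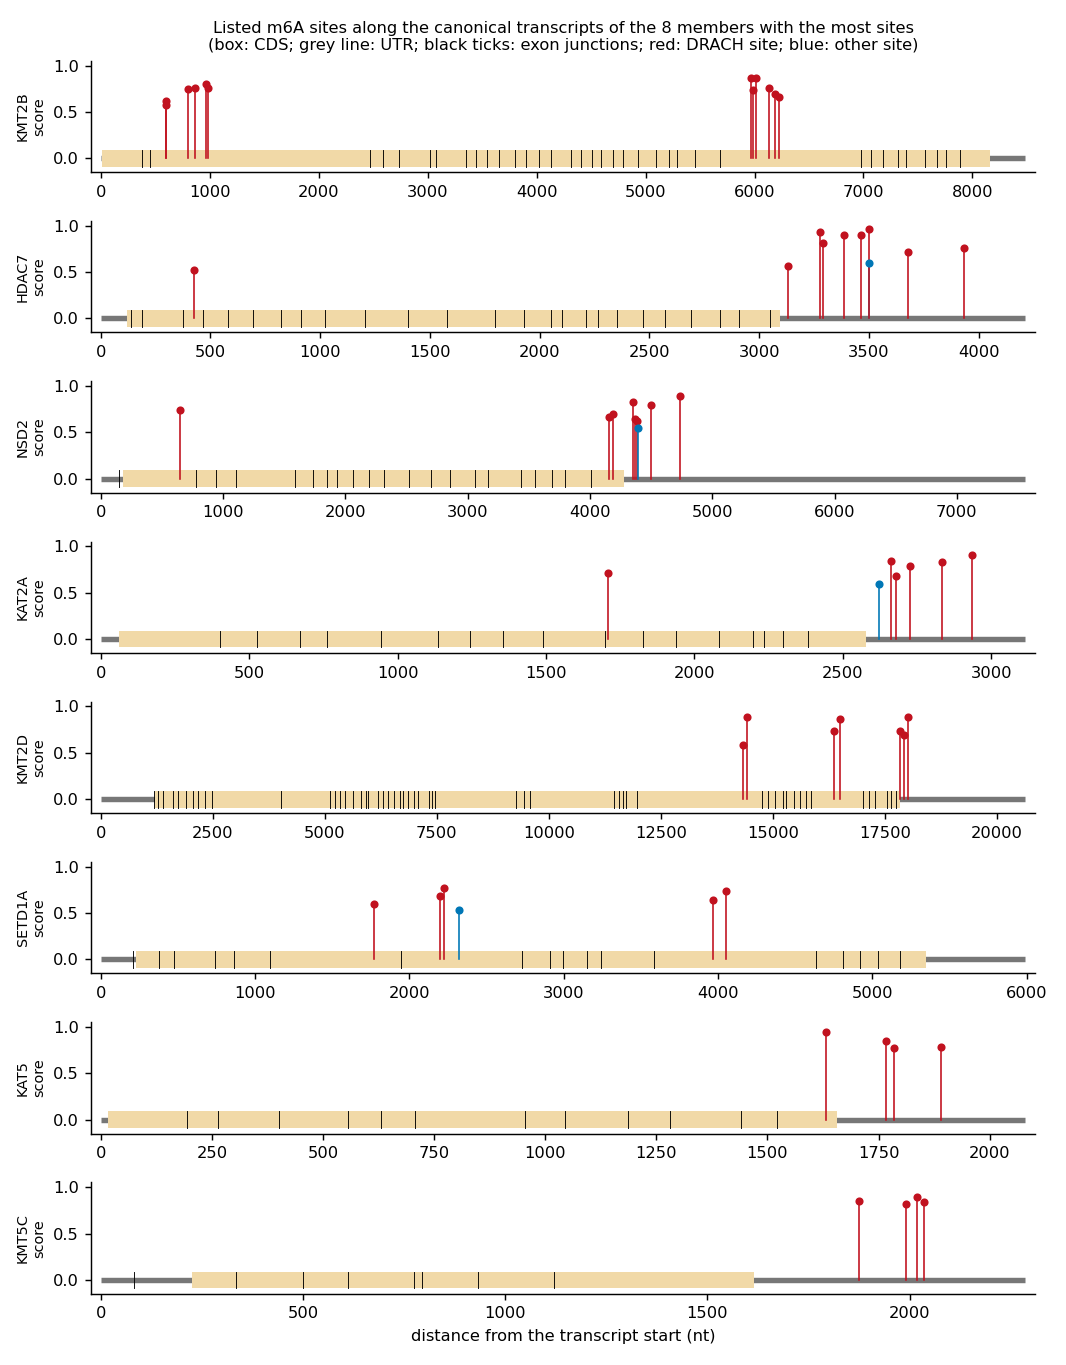
Canonical transcripts of the 8 members with the most sites, drawn by the distance from the transcript start in nt (x axis, a scale of its own for each gene), with the box for the CDS and black ticks for exon junctions. Each pin is a listed site, its height (y axis) the prediction score, red at DRACH and blue elsewhere; the KMT2B sites stand in 2 exons of 2021 and 1294 nt that are free of junctions, and those of HDAC7, KAT2A, KAT5 and KMT5C crowd at and after the end of the CDS.

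Among the acetyltransferases, 5 of 9 had a site (coding genes 19.7%), 15 sites in all. KAT2A, the GCN5 acetyltransferase of the SAGA and ATAC coactivator complexes, had 7. Of these, 6 lay in the 3' UTR, 49 to 361 nt past the start of the stop codon, with scores of 0.588, 0.844, 0.675, 0.785, 0.832 and 0.904 in order. The seventh (0.706) was in the short coding exon 11 (127 nt), 11 nt from a junction. With 2.25 sites per kb, KAT2A was the second densest of the members with at least 3 sites, and 11.8% of its DRACH motifs were listed (6 of 51, 5.51 to 23.4). KAT2B, its paralogue, had no site, with 90 DRACH motifs and 41.2% GC against 59.9% for KAT2A.

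KAT5 (TIP60), the acetyltransferase of the NuA4 complex, had 4 sites around its stop codon, the first and last 260 nt apart. The first was 23 nt before the stop codon with 0.943, the third highest score of the members, and the others were in the 3' UTR with 0.846, 0.773 and 0.782. Its 1.79 sites per kb were the third highest density. CREBBP and EP300, the large paired coactivators, both had their sites in the coding part of their last exon (4821 and 3305 nt), with 0.762 and 0.647 for CREBBP and 0.517 for EP300. The EP300 site was the lowest of all member scores. KAT8, which acetylates H4K16, had 1 site (0.730) that was in the CDS of its canonical transcript, 4 nt from a junction, and in the 3' UTR of its longest supported transcript. KAT6A, KAT6B and KAT7, which with KAT5 and KAT8 form the MYST family, had none (178, 181 and 162 DRACH motifs, GC content of 45.3 to 45.9%).

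The demethylases had the fewest sites for their length, 6 in 3 of 11 genes (coding genes with a site 19.7%). KDM1A (LSD1), a flavin-dependent enzyme that removes methyl groups from H3K4, had 3 sites in its 3' UTR, the first and last 56 nt apart, with scores of 0.518, 0.916 and 0.906. The first was the second lowest of the members and the next, 19 nt away, was the fifth highest. Its longest supported transcript lacks the exon that holds them. KDM4A, which acts on H3K9 and H3K36, had 2 sites in the 3' UTR with 0.851 and 0.785. KDM3B, an H3K9 demethylase, had 1 (0.622) in coding exon 8 (1249 nt). No site was listed for KDM2A and KDM2B (H3K36), KDM3A (H3K9), KDM4B and KDM4C (H3K9 and H3K36), KDM5A and KDM5B (H3K4) or KDM6B (H3K27). Of these 8, KDM4B and KDM6B had over 60% GC (61.4% and 62.4%), and KDM6B had an exon of 2183 nt with 27 DRACH motifs.

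The deacetylases had 11 sites in 2 of 9 genes (coding genes with a site 19.7%), and HDAC7 held 10 of the 11. HDAC7, a class IIa enzyme that shuttles between nucleus and cytoplasm, had the highest density of the members, 2.37 sites per kb, and 9 of its 77 DRACH motifs were listed (11.7%, 6.27 to 20.7). Its single CDS site (0.522), in the short exon 4 (91 nt), was the third lowest score of the members. The 9 sites in the 3' UTR were spread from 41 to 842 nt past the start of the stop codon, with scores from 0.570 to 0.961. The 3 other class IIa genes, HDAC4, HDAC5 and HDAC9, had none (135, 68 and 216 DRACH motifs). HDAC5 had 61.2% GC, close to the 62.7% of HDAC7. HDAC3, a class I enzyme of nuclear receptor corepressor complexes, had 1 site in its 3' UTR, and its score of 0.974 was the highest of all members. HDAC1 and HDAC2, the other class I genes, had none, nor had HDAC10 (class IIb), with the highest GC content of the members (66.3%) and 37 DRACH motifs. SIRT1, the NAD-dependent deacetylase, had none.

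Per kb of the longest supported transcripts the methyltransferases had 0.209 sites (0.245 on canonical transcripts), the acetyltransferases 0.258 (0.260), the demethylases 0.0431 (0.0878) and the deacetylases 0.224 (0.228). These values rested on few genes, and no density over all coding genes is given beside them. Without KAT2A the acetyltransferases had 0.145 sites per kb, and without HDAC7 the deacetylases had 0.0223. The demethylase value changed with the transcript because of the 3 KDM1A sites.

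By region, the longest supported transcripts placed 64 of the 75 sites, with 34 coding and 30 of the 3' UTR, and the canonical transcripts placed all 75, with 37 coding and 38 of the 3' UTR. The 11 that only the canonical transcripts placed were 8 of NSD2 and 3 of KDM1A, and the KAT8 site changed from the 3' UTR to the CDS. None of the 64 was in a 5' UTR (0%, 0 to 5.66), and this interval covered the 2.49% of the other listed sites. The 75 sites were exonic by the counting rule, and no further listed site lay only in an intron of a member. The classifier took the region as an input, so the list was not blind to it.

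CDS sites of the members were mostly in long internal exons, taken as at least 400 nt. This held for 27 of 34 CDS sites (79.4%, 63.2 to 89.7), or 27 of 37 on canonical transcripts (73.0%, 57.0 to 84.6), against 24.9% of the other listed CDS sites. The members are rich in such exons: 27.6% of the CDS DRACH motifs of members with a site lay in one, against 10.9% in other genes with a site. The 27 sites came from 7 genes (KMT2B, SETD1A, KMT2D, DOT1L, EHMT1, NSD2 and KDM3B), with 12 of them in KMT2B. In all, 28 members had 60 long internal exons, of which 11 had a site, and 19 of those 28 members had no site anywhere. A long exon was thus common among members with no listed site too.

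Few CDS sites lay close to exon junctions. Within 100 nt of one were 3 of 34 (8.82%, 3.05 to 22.96), against 28.8% of the other CDS sites and 69.7% of the CDS DRACH motifs of the members with a site. Of the 34, 12 were KMT2B sites in its long exons, and without KMT2B the share was 13.6%. On canonical transcripts, the list held 4 of the 1060 such motifs that close to a junction (0.377%, 0.147 to 0.966) and 32 of the 420 farther away (7.62%, 5.45 to 10.6). In other genes with a site the shares were 2.46% and 18.7%. The members' shares were lower on both sides of that limit. Both sets were chosen for having a site and were not matched for length. The parts of length and of read depth, which is unknown, were not tested.

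Around the stop codon, 16 of 64 sites (25%, 16.01 to 36.8) lay within 200 nt on the longest supported transcripts and 25 of 75 (33.3%, 23.7 to 44.6) on the canonical ones, against 33.3% and 34.5% of the other sites. In the 3' UTR up to 200 nt past the stop codon, 16 of 72 DRACH motifs of the members with a site were listed (22.2%, 14.2 to 33.1; other genes 26.4%), and beyond it 18 of 314 (5.73%, 3.66 to 8.88; other genes 6.51%). These intervals covered the values of the other genes. On the longest supported transcripts, which lack the NSD2 and KDM1A exons, 11 of 75 motifs up to 200 nt past the stop codon were listed (14.7%, 8.39 to 24.4; other genes 25.6%), and the interval did not reach the other genes' value. Beyond it the share was 4.76% (2.95 to 7.59; other genes 6.48%).

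**Figure D4:**
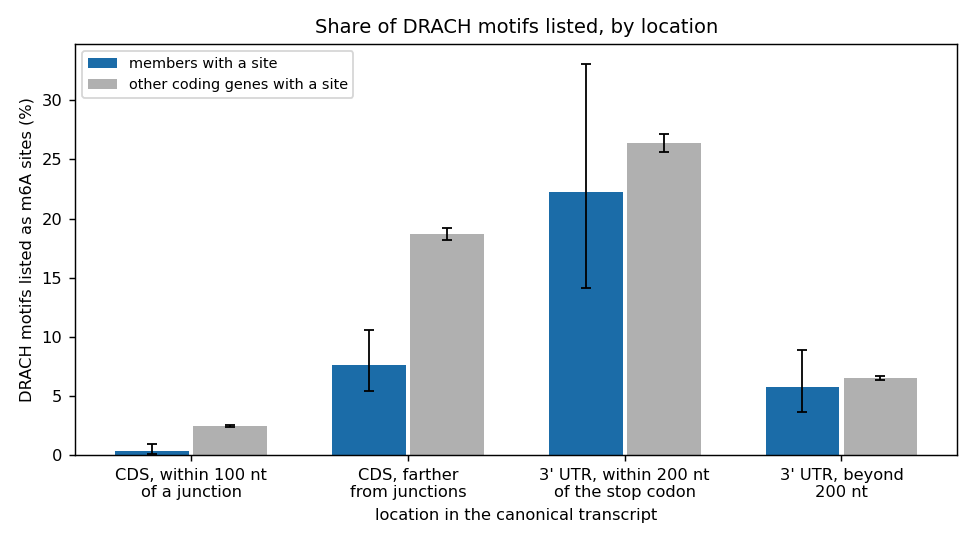
Percent of the DRACH motifs that were listed as sites (y axis) at 4 locations in the canonical transcript (x axis), for the 18 members with a site and for the other coding genes with a site, with 95% Wilson intervals as bars. The members reached 22.2% just past the stop codon and 0.377% close to coding exon junctions. Both sets were chosen for having a site and were not matched for length.

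Over whole transcripts, 60 of the 6533 DRACH motifs of all 50 members were listed (0.918%, 0.714 to 1.18). Among members with a site it was 60 of 1815 (3.31%, 2.58 to 4.23), against 7.40% in other genes with a site. On canonical transcripts these shares were 3.71% and 7.64%. Both sets were chosen for having a site and were not matched for length. The members were longer, with a median of 6028 nt against 3037 nt over coding genes, and the part of length was not tested. The share per gene, in members with at least 3 sites, ran from 2.19% in KMT2D and 2.703% in DOT1L to 11.8% in KAT2A on canonical transcripts.

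The sites followed the DRACH motif as the rest of the list did: 70 of 75 (93.3%, 85.3 to 97.1), against 88.7% of the other sites. GGACT was the most frequent pentamer with 15 sites (20%, 12.5 to 30.4; other sites 21.7%), before GGACA and GGACC with 12 each and AGACT and GAACT with 9 each. Sequence was an input of the classifier. Of the GGACT motifs in members with a site, 14 of 120 were listed (11.7%, 7.08 to 18.6), against 26.1% in other genes with a site, again without matching for length. None of the 90 AAACT motifs of these members was listed, against 7.06% in other genes with a site. None of their 104 AAACA and 119 AAACC motifs was listed either, where the other genes had 0.887% and 0.252%. The same was true of 120 AGACC, 130 TGACC, 36 TAACA, 31 TAACC and 36 TAACT motifs on the longest supported transcripts. In other genes with a site these shares were 2.13%, 0.679%, 0.268%, 0.120% and 4.04%. The motif counts leave out KDM1A, whose listed site at TGACC (0.518) lies outside its longest supported transcript. The sites outside DRACH that are printed above were GGATT in SETD1A (0.538) and KAT2A (0.588), GGACG in KDM4A (0.851) and TGAAC in HDAC7 (0.596). The HDAC7 adenosine at TGAAC (0.596) is followed directly by the listed adenosine of GAACT (0.961).

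The median prediction score of the 75 sites was 0.762 (quartiles 0.660 and 0.845), close to 0.754 for the other listed sites, and 50 of them had at least 0.7. By class the medians were 0.751 for methyltransferases, 0.773 for acetyltransferases, 0.818 for demethylases and 0.812 for deacetylases, over 43, 15, 6 and 11 sites. Scores in the 3' UTR had a median of 0.815 and those in the CDS of 0.735, and the other listed sites had 0.801 and 0.707, so the step between regions was of the same kind in both. The 5 highest scores were 0.974 (HDAC3), 0.961 (HDAC7), 0.943 (KAT5), 0.934 (HDAC7) and 0.916 (KDM1A), and the 3 lowest were 0.517 (EP300), 0.518 (KDM1A) and 0.522 (HDAC7).

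**Figure D5:**
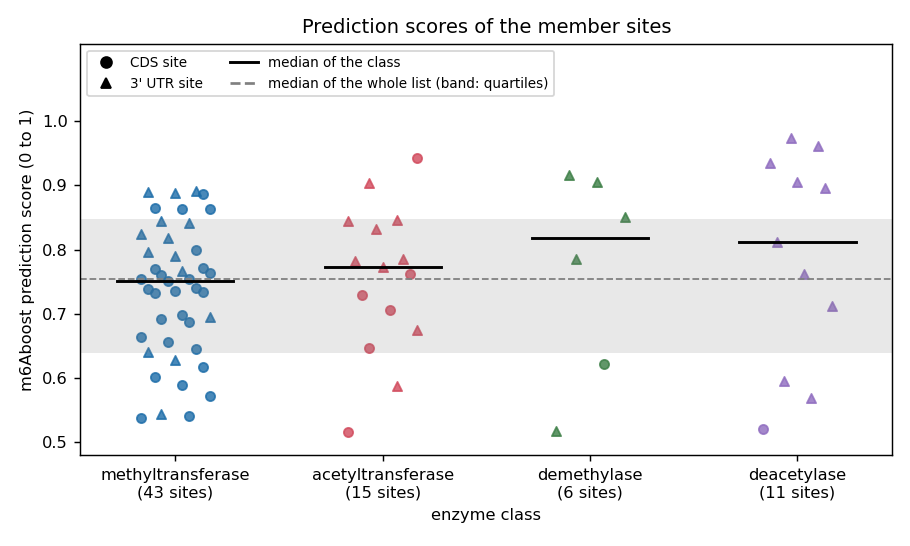
Prediction score (y axis) of each of the 75 member sites by enzyme class (x axis), circles for CDS and triangles for 3' UTR sites, with the class median as a black line. The dashed line and the band are the median (0.754) and quartiles of the whole list; the class medians, from 0.751 to 0.818, all lie inside the band.

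Neighbouring sites of a gene were at most 50 nt apart in 15 of 47 pairs (31.9%, 20.4 to 46.2), against 32.3% of pairs in other genes, and the median distance was 99 nt against 95 nt. The listed adenosine of the 33 coding DRACH sites was the first base of its codon in 8, the second in 11 and the third in 14 (42.4%, 27.2 to 59.2). Among the other coding DRACH sites 20.9% were at the third base and 57.5% at the second. The 33 sites came from few genes, 12 of them from KMT2B, and without KMT2B the order turned, with 42.9% at the second base and 38.1% at the third. On canonical transcripts 36.1% were at the second base and 38.9% at the third.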

How the data were processed

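Per the labels and the study's methods, polyadenylated RNA of C643 cells was used for miCLIP2 and the reads were aligned to GRCh38. The submitters' processing notes name STAR 2.7.3a, SAMtools 1.9, UMI-tools 1.0.0 and bedtools 2.27.1. The authors called peaks with PureCLIP, kept those found in more than 1 replicate and ran m6Aboost on the peaks at adenosines. The deposited list gives 1 prediction score per site, a fraction between 0 and 1, and neither counts nor rejected peaks. Antibody, mappability, expression and classifier all shape which sites are listed.

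Sites were placed in GENCODE release 44 (the authors used release 31 on the same assembly), 1-based. Region, length, GC content and motifs came from the longest protein-coding transcript whose transcript support level was 3 or better (or missing) and whose annotation level was 2 or better, with the Ensembl canonical transcript as the alternative, the same in 30 members. Background genes left out 227 readthrough genes. The stop codon window was 200 nt and the junction window 100 nt. Shares have Wilson intervals at 95%. No test was made, since the list pools all samples.

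Every member is named. Values are given for the 8 members with the most sites, the 3 densest with at least 3 sites, the paralogues, the 5 highest and 3 lowest scores and sites outside DRACH, except that some items this rule names are not reported here. The members and lists were chosen with earlier results of these data known. Placement was tested on simulated data. The software was Python 3.11.15 with pysam 0.24.0, numpy 2.4.6, scipy 1.17.1 and matplotlib 3.10.9.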

Additional observations from a re-analysis of the deposited data

How the results depend on the processing

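Of 70 recomputed values under alternatives, 55 moved less than their interval or limit allowed and 15 moved more. At a score of at least 0.7, 17.1% of coding genes had a site, 0.674% of the members' DRACH motifs were listed, and 98.0% of member sites were at DRACH. With exons of the longest supported transcript only, 19.1% of coding genes had a site. Of GGACT motifs alone 3.88% were listed. The median over members was 0 sites per kb, and 0.446 over members with a site only. Without the gene with the most sites, the acetyltransferases had 0.145 and the deacetylases 0.0223 sites per kb. The demethylases had 0.0878 on canonical transcripts. A stop codon window of 100 nt held 10.9% of sites and one of 400 nt 40.6%. A junction window of 200 nt held 29.4% of CDS sites, exons of at least 1000 nt held 55.9%, and 55.3% of neighbours were at most 100 nt apart, all of which follows from the windows. GC content from canonical transcripts was an alternative chosen after seeing the data. With it 1 member under 50% GC had a site where 3 had before, and 17 at 50% GC or more where 15 had. No share of coding genes on canonical transcripts is given beside these counts. No replicate could be left out, since the list pools them, and depth limits every count by an amount that is unknown. No paired analysis was possible because there was 1 group.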

Other observations

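Other gene lists were counted in the same way. Of 36 other genes for histone-modifying enzymes, 13 had a site (36.1%, 22.5 to 52.4), with 50 sites in all. This was close to the members' 36%, where all coding genes had 19.7%. SIRT3, the mitochondrial NAD-dependent deacetylase, had 8 and SUV39H1, an H3K9 trimethylase, had 7, while its paralogue SUV39H2 had none. KDM5C, an H3K4 demethylase, had 5 sites where its relatives KDM5A and KDM5B had none. PRMT5, an arginine methyltransferase, HDAC6, which deacetylates tubulin, and SIRT2 had 5 each. No site was listed for NCOA1, NCOA2 and NCOA3, the p160 coactivators.

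Of 52 genes for subunits of histone-modifying complexes, 21 had a site (40.4%, 28.2 to 53.9; coding genes 19.7%), with 127 sites. HCFC1, a cofactor shared by the SETD1A and KMT2B complexes, had 15 sites, and ASXL1, the partner of the histone H2A deubiquitinase BAP1, had 14, with 6 in BAP1 itself. SIN3B, the scaffold of a histone deacetylase complex, had 12. GATAD2A, a subunit of the NuRD deacetylase complex, had 11, and MLLT1, a reader of acetylated histones, had 11. EED and SUZ12, the core partners of EZH2 in Polycomb repressive complex 2, had none, as had EZH1 and EZH2. Of the subunits shared by the H3K4 methyltransferases, WDR5 had 4 sites and ASH2L, RBBP5 and DPY30 had none.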
